A study of Mus musculus with 12 samples.

Results

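The mRNAs of 9 tight junction genes were followed in sub-polysomal and polysomal RNA of mouse 4T1 cells: the claudins Cldn3, Cldn4 and Cldn7, the 4-pass membrane proteins Ocln (occludin) and Marveld2 (tricellulin), the adhesion molecule F11r (JAM-A), and the cytoplasmic proteins Tjp1 (ZO-1), Tjp3 (ZO-3) and Cgn (cingulin). They were picked by gene symbol, and all 9 were found among the 55376 genes of the count table and among the 12224 genes with enough counts to be tested. 4T1 is a mouse mammary carcinoma line. One population carried the empty vector (mock) and the other carried FLAG-tagged METTL7A1 cDNA under a CMV promoter, both kept under G418 selection. METTL7A1 is a methyltransferase-like protein, and the comparison asks what its expression changes in the RNA that is on ribosomes. All cells were given cycloheximide at 0.1 mg/ml for 5 min before lysis, which holds ribosomes on their mRNAs, and the lysates were spun through sucrose gradients. Fractions 3 to 7, with the ribosomal subunits and single ribosomes, made the sub-polysomal pool, and fractions 8 to 11 made the polysomal pool. There were 3 replicates in each of 4 groups, lettered A to C for mock and D to F for METTL7A1 cells, and nothing in the labels says that the letters are separate cultures, so that the p-values measure the spread between these samples, which may be technical. Each genotype is represented by 1 transfected population, and a difference between populations cannot be told apart from an effect of METTL7A1.

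Tight junctions seal the space between neighbouring epithelial cells. Claudins form the strands that close or open this space to ions, occludin and tricellulin belong to the same strands, with tricellulin enriched where 3 cells meet, and JAM-A is an immunoglobulin-like adhesion molecule beside them. The ZO proteins and cingulin bind the strands from the inside and tie them to actin and myosin. Claudin-3, claudin-4 and claudin-7 are typical of mammary epithelium and of luminal carcinomas, and low claudin levels mark carcinomas with mesenchymal features.

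The libraries held 1817520 to 6966156 counts. Mitochondrial genes took 0.684% to 8.49% of them, with the higher shares in the sub-polysomal pool. The transfected gene, Mettl7a1, was counted 4 to 24 times per mock library (n = 6) and 989 to 2436 times per METTL7A1 library (n = 6). Epithelial markers (Epcam, Krt8, Krt18, Krt19, Krt7 and Cdh1) were detected in every library, while markers of leukocytes, endothelial and erythroid cells summed to at most 7 counts in a library and those of fibroblasts to 4 to 44. The summed epithelial markers lay at 3430 to 4120 CPM (counts scaled to the size of the library) in mock and 5210 to 6100 CPM in METTL7A1 polysomal RNA, and at 2670 to 2790 CPM and 2820 to 3080 CPM in sub-polysomal RNA, and whether this bears on the junction genes was not tested. Levels below are CPM scaled by the trimmed mean of M-values (TMM), and changes are log2 values of the edgeR quasi-likelihood fit over all 12 libraries. A change passed where its Benjamini-Hochberg adjusted p over all tested genes was below 0.05. The epithelial markers did not move together. Over the mean of the pools Krt8 (0.82), Krt19 (0.47), Krt18 (0.33) and Krt7 (0.31) passed as higher. Cdh1 (0.20, edgeR adjusted p = 0.148) and Epcam (-0.28, edgeR adjusted p = 0.0889) did not pass. By pool, Epcam was lower in sub-polysomal RNA (-0.71, edgeR adjusted p = 0.0071) and Cdh1 higher in polysomal RNA (0.49, edgeR adjusted p = 0.0322).

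The mRNAs that differed most between the genotypes, Cldn3 and Cldn4, are encoded side by side on mouse chromosome 5 (GRCm38), Cldn3 at chr5:134986214-134987472 on the plus strand and Cldn4 at chr5:134945119-134946934 on the minus strand. Their start sites are 39.3 kb apart, and the genes point away from each other. The 250 bases before each start site are shown because these neighbours moved together (RefSeq, build GRCm38.p6, chr5:134985964-134986213 for Cldn3 and chr5:134946935-134947184, minus strand, for Cldn4). Capitals mark the motifs found by a search of both strands for CACCTG, the E-box that Snail and Zeb repressors recognise, for AACCNGTT, the Grainyhead-like site, and for GGGCGG, the GC box. No capitals of different motifs overlap.
Cldn3: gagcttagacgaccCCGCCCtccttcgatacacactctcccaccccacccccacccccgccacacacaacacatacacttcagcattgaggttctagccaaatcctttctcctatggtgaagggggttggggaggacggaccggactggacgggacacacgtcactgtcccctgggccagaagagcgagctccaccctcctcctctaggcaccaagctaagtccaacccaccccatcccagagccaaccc
Cldn4: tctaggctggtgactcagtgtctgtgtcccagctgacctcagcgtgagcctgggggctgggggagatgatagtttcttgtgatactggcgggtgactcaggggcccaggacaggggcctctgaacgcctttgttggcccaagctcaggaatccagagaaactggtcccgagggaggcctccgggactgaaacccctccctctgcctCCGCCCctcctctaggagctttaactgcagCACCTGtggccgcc
The Cldn4 window held 1 E-box, starting 14 bases before the start site, and 1 GC box, and the Cldn3 window held 1 GC box, starting 236 bases before its start site. An E-box was present in 17.2%, a Grainyhead-like site in 1.79% and a GC box in 32.7% of the 32851 windows of the same length. All 9 genes matched that table, with 13 start sites among them: 6 of these windows held an E-box, in Cldn4, Cldn7, Ocln, F11r and Tjp3, 10 held a GC box, and 1, that of Cgn, held a Grainyhead-like site. The windows of Marveld2 overlap, as do those of Ocln in part. The GC box counted in each Marveld2 window, 44 and 71 bases before the start sites, is the same site. These letter matches are descriptions and were not tied to any binding measured here.

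Levels were compared between genes per length of the gene model. In mock sub-polysomal RNA, Cldn7 was at 268 CPM per kb, Cldn4 at 180, Cldn3 at 90.1 and F11r at 59.4. Marveld2 and Ocln followed at 5.71 and 4.86 CPM per kb, Tjp1 at 1.74, Cgn at 1.64 and Tjp3 at 0.786. Marveld2 and Ocln differed by less than the spread between their replicates, and so did Tjp1 and Cgn. In METTL7A1 sub-polysomal RNA the order of the claudins was another one, with Cldn4 at 633 CPM per kb above Cldn7 at 358 and Cldn3 at 347, and the last pair differed by less than the spread.

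Cldn3 had the largest change of the 9 mRNAs and was higher with METTL7A1 whichever pool was sequenced. Its polysomal level was 73.9, 79.2 and 107 CPM in the mock libraries A, B and C and 302, 340 and 341 CPM in the METTL7A1 libraries D, E and F. In sub-polysomal RNA it was at 113, 131 and 96.3 CPM in mock and at 601, 445 and 263 CPM in METTL7A1 libraries. No METTL7A1 library overlapped with a mock library in either pool, and the sub-polysomal METTL7A1 libraries varied most, with a coefficient of variation of 38.8% against 6.72% in the polysomal ones. The log2 change was 1.92 ± 0.23 (SE, edgeR adjusted p = 9.7e-06) in polysomal and 1.95 ± 0.23 (edgeR adjusted p = 9.87e-06) in sub-polysomal RNA. These are 3.78-fold (95% interval 2.72 to 5.27) and 3.85-fold (2.75 to 5.39). The RNA came from whole cultures, in which fewer cells of a kind and less RNA per cell cannot be told apart. Cldn3 overlaps Wbscr25 on the other strand, which had 6 counts over all libraries.

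Cldn4, the most abundant of the 9 mRNAs in METTL7A1 cells, rose as well. Its polysomal level was 372, 368 and 482 CPM in mock and 1130, 1042 and 1057 CPM in METTL7A1 libraries. Its sub-polysomal level was 367, 316 and 295 CPM in mock and 1443, 1066 and 938 CPM in METTL7A1 libraries. The lowest METTL7A1 library was above the highest mock library in both pools. The log2 change was 1.40 ± 0.18 (edgeR adjusted p = 1.99e-05) in polysomal and 1.82 ± 0.18 (edgeR adjusted p = 1.52e-06) in sub-polysomal RNA, which are 2.64-fold (2.04 to 3.42) and 3.53-fold (2.71 to 4.59).

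Cldn7, the claudin known to bind EpCAM, moved less. In polysomal RNA it was at 389, 385 and 506 CPM in mock and at 676, 606 and 594 CPM in METTL7A1 libraries, without overlap, but the change of 0.55 ± 0.21 did not pass (edgeR adjusted p = 0.0692). It passed in 4 of 15 alternatives, with DESeq2 (adjusted p = 0.0488), without the filter (0.0193), in the fit of the compared groups alone (0.0177) and without library pair C (0.0437). In sub-polysomal RNA the groups overlapped, with 422, 392 and 372 CPM in mock against 743, 493 and 351 CPM in METTL7A1 libraries, and the change was 0.42 ± 0.21 (edgeR adjusted p = 0.127), which passed with Actb scaling (0.69, adjusted p = 0.0369) and without library pair F (0.65, adjusted p = 0.0227). Over the mean of both pools it passed at 0.49 ± 0.14 (edgeR adjusted p = 0.0125), a call that was lost without library pair B (0.45, adjusted p = 0.0524) or D (0.29, adjusted p = 0.103), and with GC offsets (0.25, adjusted p = 0.139).

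**Figure D1:**
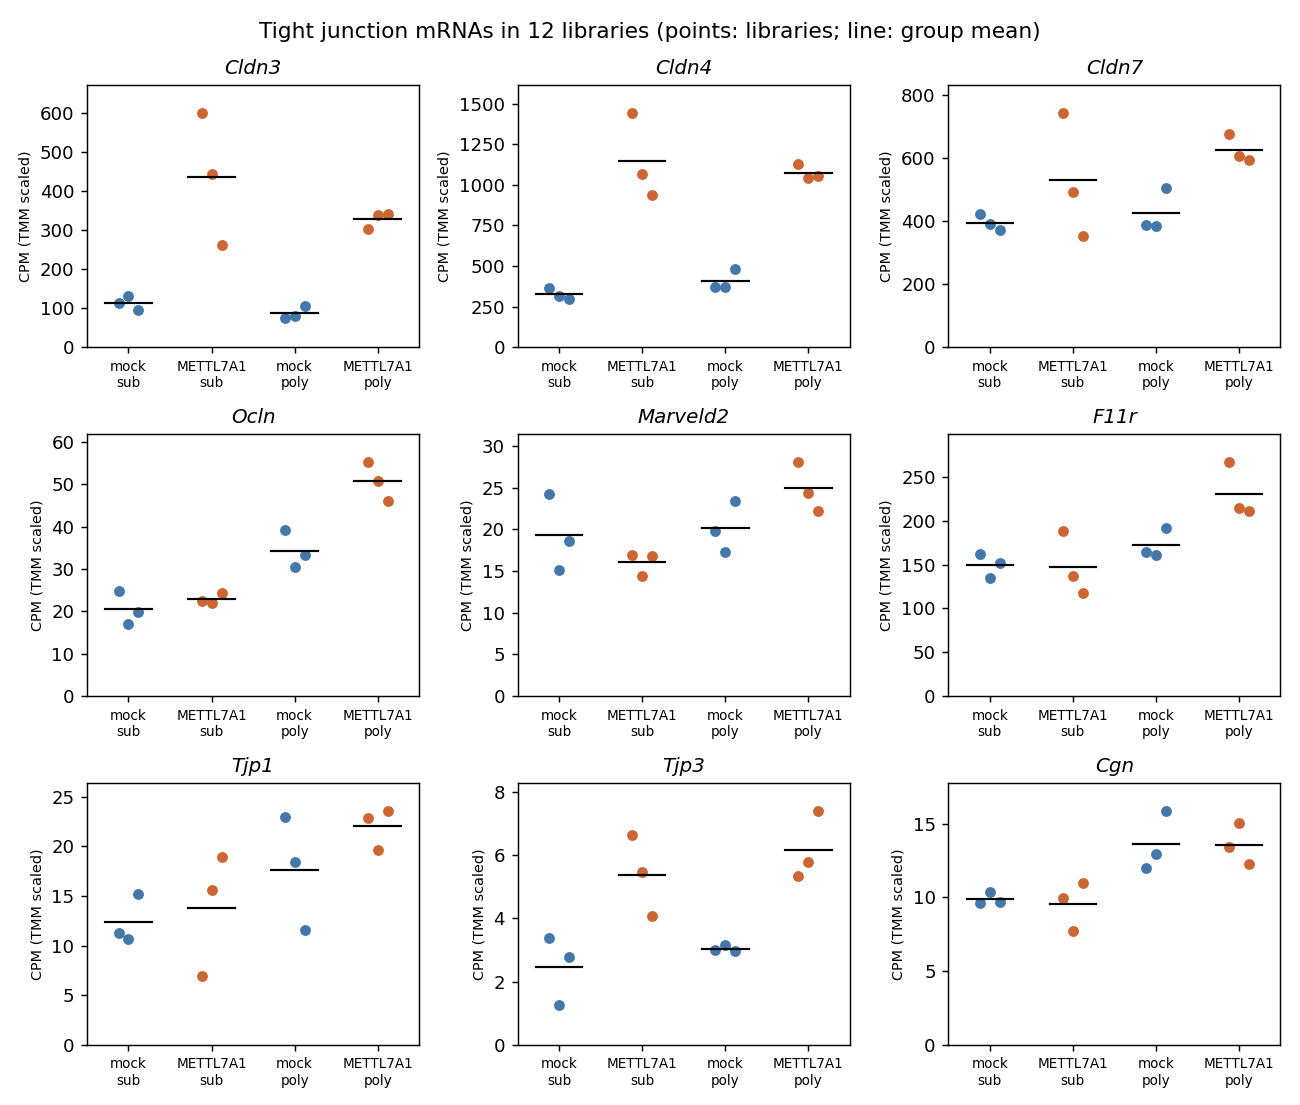
CPM (TMM scaled, linear axes from 0) of the 9 mRNAs in the 12 libraries, with points in the order A, B, C for mock (blue) and D, E, F for METTL7A1 (orange) and a line at each group mean (n = 3). Cldn3 and Cldn4 are separated by genotype in both pools, Tjp3 likewise at levels below 10 CPM, while the polysomal points of Ocln lie above its sub-polysomal points in both genotypes.

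Because these 3 claudin mRNAs were counted in the same libraries, their count ratios do not depend on any scaling between libraries. There was 0.954 ± 0.0015 Cldn4 count for each Cldn7 count in mock polysomal RNA and 1.72 ± 0.054 in METTL7A1 polysomal RNA (SD, n = 3 each). In sub-polysomal RNA the ratio of Cldn4 to Cldn7 was 0.824 ± 0.042 in mock and 2.26 ± 0.37 in METTL7A1 libraries. The ratio of Cldn3 to Cldn7 went from 0.202 ± 0.011 to 0.527 ± 0.070 in polysomal and from 0.287 ± 0.041 to 0.820 ± 0.077 in sub-polysomal RNA. Each of these 4 ratios separated the genotypes without overlap, with an exact two-sided permutation p of 0.1, the smallest that 3 against 3 allows. The ratio of Cldn3 to Cldn4 differed in polysomal RNA, 0.212 ± 0.012 against 0.306 ± 0.033 (exact permutation p = 0.1), and overlapped between the genotypes in sub-polysomal RNA, 0.349 ± 0.057 against 0.371 ± 0.079 (exact permutation p = 0.8).

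Among the MARVEL proteins, Ocln was higher in polysomal RNA of METTL7A1 cells. It was at 39.3, 30.4 and 33.4 CPM in mock and at 55.3, 50.9 and 46.0 CPM in METTL7A1 polysomal libraries, without overlap, a change of 0.56 ± 0.14 (edgeR adjusted p = 0.0095). In sub-polysomal RNA it was at 24.8, 17.0 and 19.7 CPM in mock and at 22.5, 22.1 and 24.4 CPM in METTL7A1 libraries, which overlap, and the change was 0.20 ± 0.18 (edgeR adjusted p = 0.409). The polysomal call was lost without library pair B, D or E, with adjusted p of 0.051, 0.0621 and 0.0569. Marveld2 lay between 14.4 and 28.1 CPM over the 12 libraries, and the genotypes overlapped in both pools. Its polysomal change was 0.31 ± 0.16 (edgeR adjusted p = 0.206) and its sub-polysomal change -0.23 ± 0.20 (edgeR adjusted p = 0.388), a value that turned to 0.02 with Actb scaling.

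F11r did not pass in either pool. Its polysomal libraries did not overlap, at 164, 161 and 192 CPM in mock and 267, 215 and 211 CPM in METTL7A1 cells, with a change of 0.42 ± 0.16 (edgeR adjusted p = 0.0802). Its sub-polysomal change was -0.02 ± 0.17 (edgeR adjusted p = 0.946), and that value changed sign with Actb scaling, without the filter, with GC offsets and without library pair A, E or F. With GC offsets the polysomal change passed at 0.46 (adjusted p = 0.0359).

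Of the cytoplasmic proteins, Tjp3 was higher in METTL7A1 cells and Tjp1 and Cgn did not pass. Tjp3 is the ZO protein found mainly in epithelia. It was counted 6, 4 and 14 times in mock and 20, 22 and 17 times in METTL7A1 sub-polysomal libraries, and 22, 23 and 24 times in mock and 39, 45 and 44 times in METTL7A1 polysomal libraries. The levels were 3.00, 3.16 and 2.98 CPM against 5.34, 5.78 and 7.41 CPM in polysomal RNA, without overlap, and the change was 1.00 ± 0.26 (edgeR adjusted p = 0.0119). In sub-polysomal RNA the levels were 3.39, 1.26 and 2.76 CPM against 6.63, 5.46 and 4.06 CPM, again without overlap, and the change was 1.14 ± 0.36 (edgeR adjusted p = 0.0202). That call was lost in 5 of 14 alternatives, namely without library pair B, D or E (adjusted p of 0.1, 0.0866 and 0.0727), in the fit of the compared groups alone (adjusted p = 0.0511) and with GC offsets (0.58, adjusted p = 0.246), and the polysomal call without E or F (adjusted p of 0.0537 and 0.0654). The 3' end of Tjp3 also overlaps Apba3 on the other strand, which had 2661 counts over all libraries. The overlap runs from base 81273207 to 81273246 of chromosome 10. Apba3 was at a mean of 49.0 CPM against 4.27 CPM for Tjp3. It was itself higher in METTL7A1 cells, by 1.02 ± 0.16 over the mean of the pools (edgeR adjusted p = 7.61e-05). The strand setting of the counting is not given in the sources used here, so that reads from the overlap cannot be assigned with certainty.

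Tjp1 was at 22.9, 18.4 and 11.5 CPM in mock and 22.9, 19.7 and 23.6 CPM in METTL7A1 polysomal RNA, and at 11.3, 10.7 and 15.2 CPM against 6.96, 15.6 and 18.9 CPM in sub-polysomal RNA. The groups overlapped in both pools, and the changes were 0.32 ± 0.24 and 0.15 ± 0.31 (edgeR adjusted p = 0.393 and 0.741). Cgn was at 12.0 to 15.9 CPM in mock and 12.3 to 15.02 CPM in METTL7A1 polysomal RNA. Its polysomal change was -0.00075 with a 95% interval of -0.35 to 0.35, and its sub-polysomal change was -0.05 with an interval of -0.51 to 0.40. The sign of either Cgn value turned under at least 1 other scaling.

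**Figure D2:**
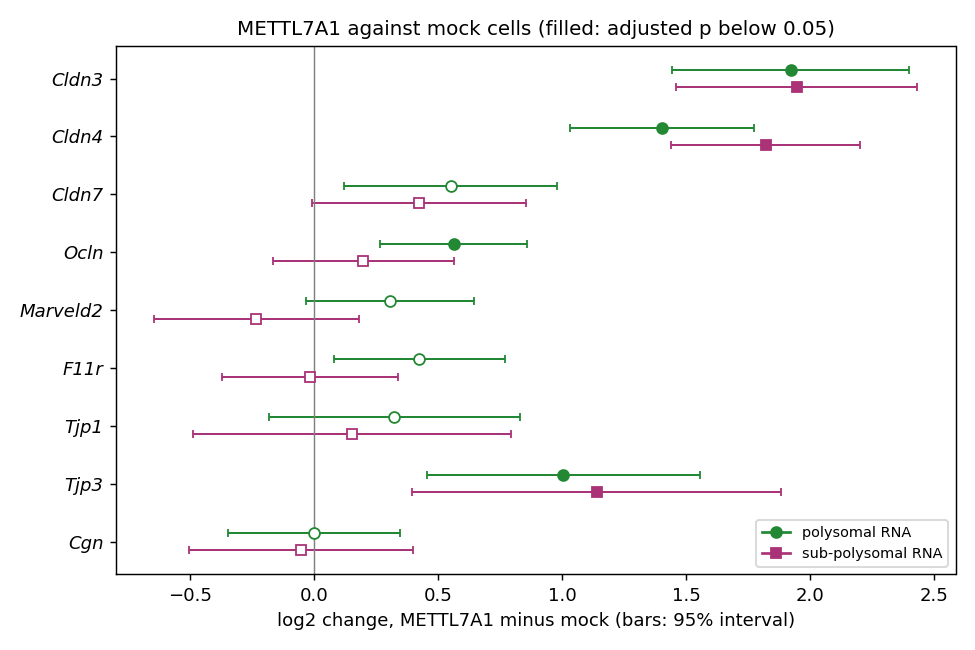
Log2 change of METTL7A1 against mock cells for each mRNA in polysomal (circles) and sub-polysomal RNA (squares), with 95% intervals from the edgeR fit and filled symbols where the adjusted p was below 0.05. Cldn3, Cldn4 and Tjp3 are filled in both pools, at 1.92 and 1.95, 1.40 and 1.82, and 1.00 and 1.14, and Ocln is filled in polysomal RNA only.

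Taken as a list, 4 of the 9 mRNAs were higher in METTL7A1 polysomal RNA and 0 lower, where 9.69% of all 12224 tested genes were called higher and 8.28% lower. In sub-polysomal RNA 3 of 9 were higher and 0 lower, beside 16.8% and 14.5% of all genes. Over the mean of both pools 5 of 9 were higher and 0 lower, beside 20.3% and 19% of all genes. The median log2 change of the 9 was 0.55 in polysomal RNA, 0.20 in sub-polysomal RNA and 0.38 over the mean, where the medians of all genes were -0.01, -0.0015 and -0.0061. With the stricter rule of an adjusted p below 0.01 and a log2 change beyond 1.5, Cldn3 was called in polysomal RNA (1 of 9, beside 0.982% of all genes), and Cldn3 and Cldn4 were called in sub-polysomal RNA (2 of 9, beside 1.5%) and over the mean (2 of 9, beside 1.43%). All 3 METTL7A1 libraries lay above all 3 mock libraries for Cldn3, Cldn4, Cldn7, Ocln, F11r and Tjp3 in polysomal RNA, beside 18.9% of all genes, and for Cldn3, Cldn4 and Tjp3 in sub-polysomal RNA, beside 23.5%.

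The 3 METTL7A1 sub-polysomal libraries were not alike. Library D had the highest and library F the lowest level of Cldn3, Cldn4, Cldn7, F11r and Tjp3, while Tjp1 was lowest in D and highest in F. Cldn3 in D was 601 CPM and in F 263 CPM, and Cldn7 743 and 351 CPM. Mettl7a1 itself was at 395 CPM in D, 284 in E and 236 in F, and mitochondrial genes took 4.37%, 5.33% and 7.67% of the counts. The part of these differences in the claudin values was not tested. Without pair D the sub-polysomal change was 1.65 for Cldn3 and 1.62 for Cldn4, and without pair F 2.21 and 1.95.

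GC content moved with some of these values. The transcripts of Cldn3, Tjp3, Cldn7 and Cldn4 are rich in G and C (62.7%, 60.7%, 57.0% and 56.8%), and that of Ocln is poor (42.0%). When each library's trend with GC content was removed by offsets, the sub-polysomal change of Cldn3 fell to 1.28, that of Cldn4 to 1.44 and that of Cldn7 to 0.02, while the polysomal changes of Cldn3 and Cldn4 stayed within 1.79 to 2.10 and 1.33 to 1.54 over all alternatives tried. Cldn3 and Cldn4 passed at an adjusted p below 0.05 in both pools under every alternative fit, GC offsets and each left-out pair included.

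Polysomal RNA was compared with sub-polysomal RNA within each genotype, which asks how much of an mRNA sat on several ribosomes. Ocln was the clearest case, at 24.8, 17.0 and 19.7 CPM in sub-polysomal against 39.3, 30.4 and 33.4 CPM in polysomal RNA of mock cells. In METTL7A1 cells it was at 22.5, 22.1 and 24.4 CPM against 55.3, 50.9 and 46.0 CPM, and the pools did not overlap in either genotype. The log2 change from sub-polysomal to polysomal RNA was 0.78 ± 0.16 in mock (edgeR adjusted p = 7.5e-04) and 1.14 ± 0.15 in METTL7A1 cells (edgeR adjusted p = 5.43e-06). The pools of Cgn did not overlap in either genotype as well. Its change was 0.46 ± 0.19 in mock (edgeR adjusted p = 0.0566) and 0.51 ± 0.19 in METTL7A1 cells.

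In mock cells Ocln was the 1 member of 9 that passed as higher in polysomal RNA, where 23.3% of all genes did. In METTL7A1 cells 5 of 9 passed as higher, where 30% of all genes did: Ocln, F11r (0.65 ± 0.17, edgeR adjusted p = 0.0026), Marveld2 (0.64 ± 0.18, edgeR adjusted p = 0.0045), Tjp1 (0.63 ± 0.27, edgeR adjusted p = 0.0491) and Cgn (0.51 ± 0.19, edgeR adjusted p = 0.0256). The call of Tjp1 was lost in 9 of 16 alternatives, with 0.32 and an adjusted p of 0.357 without library pair D, and that of Cgn in 4 of 16, with 0.29 and an adjusted p of 0.318 without library pair E. With Actb scaling the calls of F11r and Marveld2 were lost as well (0.40 each, adjusted p of 0.114 and 0.112), and that of Marveld2 also without library pair E (adjusted p = 0.0534). In this fit the claudins did not pass in either genotype, with changes of -0.39 ± 0.23 and -0.41 ± 0.22 for Cldn3, 0.32 ± 0.18 and -0.09 ± 0.17 for Cldn4, and 0.11 ± 0.20 and 0.24 ± 0.21 for Cldn7, in mock and METTL7A1 cells in turn. No member passed as lower in it, but Cldn3 did without library pair C in mock cells (-0.68, adjusted p = 0.0449), and in METTL7A1 cells with Actb scaling (-0.67, adjusted p = 0.0307) and without library pair F (-0.70, adjusted p = 0.0124). TMM scaling sets the bulk of the genes equal between the pools, so that these changes are relative to the other genes. The count of members that passed in mock cells went from 1 to 7 when each pool was scaled on its own. Scaling each pool on its own moves all genes of a library together. The share of all genes that passed under it was not counted, so the 7 cannot be read as a result about the members. Under that scaling the Cldn3 changes were 0.04 and 0.03, and that of Cldn4 in METTL7A1 cells was 0.34. With GC offsets Cldn3 in METTL7A1 cells passed as higher in polysomal RNA (0.53, adjusted p = 0.0125).

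**Figure D3:**
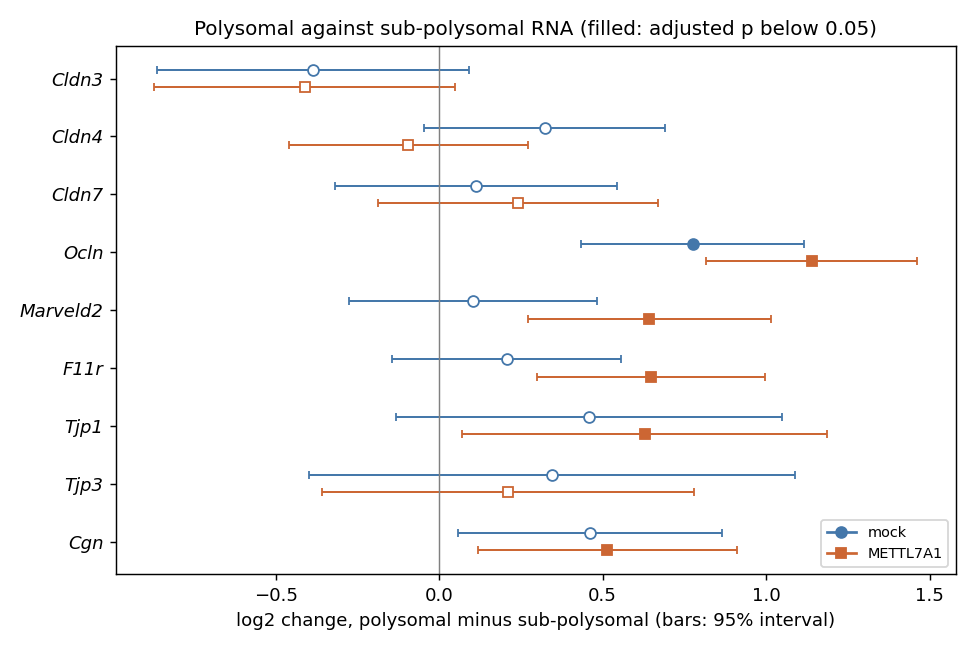
Log2 change of polysomal against sub-polysomal RNA for each mRNA in mock (circles) and METTL7A1 cells (squares), with 95% intervals from the edgeR fit and filled symbols where the adjusted p was below 0.05. Ocln is filled in both genotypes, at 0.78 and 1.14, Marveld2, F11r, Tjp1 and Cgn in METTL7A1 cells only, and the 3 claudins and Tjp3 in neither.

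Whether the shift towards polysomes differed between the genotypes was tested as an interaction. No member passed by edgeR, DESeq2 or limma-voom. Of the 12224 genes 0% passed by edgeR, although 1911 had an unadjusted p below 0.05, and limma-voom called 0 and DESeq2 329. Among the members the unadjusted p was below 0.05 for Marveld2 only, with 0.54 ± 0.25 (edgeR adjusted p = 0.315). The values for the other membrane proteins were 0.44 ± 0.24 for F11r and 0.36 ± 0.22 for Ocln, and for the claudins -0.03 ± 0.32 for Cldn3, -0.42 ± 0.25 for Cldn4 and 0.13 ± 0.29 for Cldn7. The 95% interval for Cldn3, -0.69 to 0.64, leaves room for a shift of that size in either direction. That Marveld2, F11r, Tjp1 and Cgn passed in METTL7A1 and not in mock cells is therefore no shown difference between the genotypes.

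The ratio of the polysomal to the sub-polysomal library of each letter was also taken per replicate. This pairing rests on the letters alone, and deviations of same-letter libraries correlated with r from -0.292 to 0.107 only. The log2 ratio of Ocln was 0.66, 0.82 and 0.75 in A, B and C and 1.28, 1.19 and 0.90 in D, E and F. That of Marveld2 was -0.29, 0.19 and 0.32 against 0.72, 0.75 and 0.40, and that of F11r was 0.02, 0.26 and 0.34 against 0.50, 0.64 and 0.85. In these 3 genes all METTL7A1 replicates lay above all mock replicates (exact permutation p = 0.1 each, the smallest the design allows), and 22.8% of all genes were separated in one or the other direction. The ratios of the other 6 genes overlapped. For Cldn3 they ran from -0.72 to 0.15 in mock and from -0.99 to 0.37 in METTL7A1 cells, and for Cldn4 from 0.02 to 0.71 and from -0.35 to 0.17.

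Since Cldn3 and Cldn4 are neighbours, the tested genes around them were looked at, and those named here were chosen after their values were seen. Within 250 kb there were 9 other tested genes, of which 4 were higher and 1 lower over the mean of the pools, beside 20.3% and 19% of all genes. Their changes lay between -0.29 and 1.18. The largest, Mettl27, had 0 to 8 counts in a library. Abhd11 was at 0.37 ± 0.10 and Stx1a at 0.46 ± 0.13, both with adjusted p below 0.05 by edgeR, but neither passed with GC offsets, at 0.13 and 0.19 (adjusted p of 0.216 and 0.226). Bcl7b was at -0.29 ± 0.10, and its call was lost in 6 of 14 alternatives, as was that of Mettl27 in 6 of 13. All were smaller than the 1.93 ± 0.16 of Cldn3 or the 1.61 ± 0.13 of Cldn4. Within 2 Mb of Cldn3 the median of 47 genes was 0.22, and 0.12 with GC offsets. Of these genes 35 were above 0, 17 passed as higher and 5 as lower, and none was above Cldn3. Cldn4 is itself among the 47, the 35 and the 17. Of the 45 genes within 2 Mb of Cldn4, 2 were above Cldn4, and Cldn3 is among these 2.

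The surroundings of Tjp3 on chromosome 10 (chr10:81273207-81291581) were looked at in the same way. Of 20 tested genes within 250 kb, 18 were higher in METTL7A1 cells and 0 lower, beside 20.3% and 19% of all genes, with changes from 0.18 to 1.37. The largest, Gm48552, had 1 to 11 counts in a library and did not pass (edgeR adjusted p = 0.054). Within 2 Mb, 94 of 102 genes were above 0, 67 passed as higher and 2 as lower, and the median was 0.59, or 0.33 with GC offsets. Tjp3, at 1.07 ± 0.22 over the mean of the pools (edgeR adjusted p = 8.35e-04), was 0.48 above this median, and 9 of the 102 genes had larger changes. Along the chromosome, the 165 tested genes before 56 Mb had a median of -0.68, with 122 of them lower and 3 higher, and the 419 genes after it had a median of 0.33, with 199 higher and 19 lower. With GC offsets these medians were -0.56 and 0.30. The border was set after seeing the data. The median of chromosome 5, which carries Cldn3 and Cldn4, was -0.11. DNA copy number was not measured here, and the part of the chromosomal position in the Tjp3 value was not tested. Around the other members, medians within 2 Mb lay between -0.09 and 0.09.

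**Figure D4:**
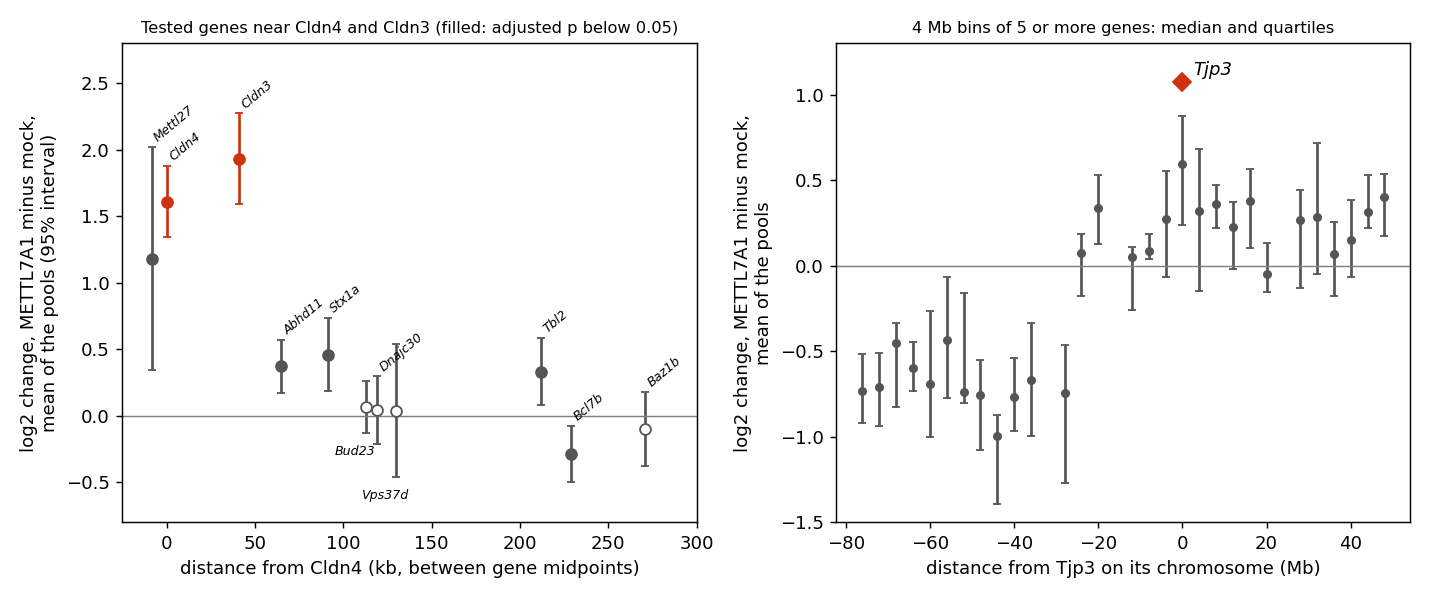
Left, log2 change of METTL7A1 against mock cells over the mean of the pools for the tested genes near Cldn4 and Cldn3 (red), against distance between gene midpoints in kb, with 95% intervals and filled symbols where the adjusted p was below 0.05. Right, median and quartiles of the same change for the genes of chromosome 10 in 4 Mb bins of 5 or more genes, against distance from Tjp3 (red diamond, 1.07) in Mb: bins far to the left lie below 0, and the bin around Tjp3 has a median of 0.60.

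Other genes of the junction were compared with the members from lists of known components. Of 23 other claudins, 21 were in the table and 5 had enough counts. Over the mean of the pools 4 of these 5 were higher, Cldn23 (1.88 ± 0.22), Cldn6 (1.84 ± 0.37), Cldn12 (0.42 ± 0.11) and Cldn1, and Cldn9 did not pass. The median of the 5 was 1.84. In polysomal RNA 4 of the 5 passed and in sub-polysomal RNA 2, Cldn23 and Cldn1, beside 9.69% and 16.8% of all genes called higher. Some of these calls were not kept in every alternative: that of Cldn1 was lost in 3 of 14 in polysomal RNA (adjusted p of up to 0.116, without library pair D) and in 4 of 14 in sub-polysomal RNA (up to 0.0972, without C), and the polysomal call of Cldn12 without library pair D (adjusted p = 0.0713). Only Cldn12 among them was abundant, with 192 to 1385 counts. Cldn23 had 4 to 19 counts in mock and 22 to 69 in METTL7A1 libraries, at 2.25, 2.51 and 1.77 CPM against 8.28, 9.91 and 5.25 CPM in sub-polysomal RNA. Cldn1 had 0, 1 and 1 counts in mock and 4, 6 and 4 in METTL7A1 sub-polysomal libraries, and 7, 7 and 5 against 23, 15 and 12 in polysomal ones. Its mock libraries alone did not reach the filter of 1 CPM in 3 libraries. Cldn1 was tested only through the METTL7A1 libraries, so its place in these counts and in the median was partly set by the filter.

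Other tight junction proteins did not share this pattern as a list. Of 31 tested genes, 7 were higher and 4 lower over the mean of the pools, with a median of -0.06, beside the 20.3% and 19% of all genes. Micall2, which acts in junction assembly with Rab13, was at 0.69 ± 0.11, Cxadr, an adhesion molecule of the strands, at 0.65 ± 0.15, and Crb3, a polarity protein, at 0.55 ± 0.14. Magi2 was at 0.97 ± 0.29 from 3 to 29 counts, and did not pass without library pair F (0.76, adjusted p = 0.0833). Mpdz, a multi-PDZ scaffold, was at -0.86 ± 0.22, and Rab13 at -0.71 ± 0.18. These 6 are among the 11 that passed edgeR's test. In polysomal RNA 1 of 31 passed, Cxadr, whose call was lost without library pair C, D or E, beside 9.69% of all genes called higher and 8.28% lower. In sub-polysomal RNA 4 were higher and 4 lower, beside 16.8% and 14.5%.

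Of 21 tested adherens junction and desmosome genes, 4 were higher and 3 lower over the mean of the pools, with a median of 0.12. Both shares are close to or below the 20.3% and 19% of all genes. Nectin2 was at 1.11 ± 0.11 (edgeR adjusted p = 5.82e-07) and Nectin3, its partner in adhesion, at -0.87 ± 0.11 (edgeR adjusted p = 1.02e-05). Ctnnd1 (p120 catenin) was at 0.62 ± 0.11, Pkp2 and Pkp3, plakophilins of the desmosome, were at 0.53 ± 0.13 and 0.53 ± 0.10, and Perp, a desmosomal membrane protein, at -0.54 ± 0.12. Pkp3 did not pass with GC offsets (0.19, adjusted p = 0.0541), nor Perp with Actb scaling (-0.37, adjusted p = 0.0597). The change of Perp was -0.96 in sub-polysomal and -0.12 in polysomal RNA. In polysomal RNA 5 of 21 were higher and 1 lower, beside 9.69% and 8.28% of all genes. In sub-polysomal RNA 3 were higher and 4 lower, beside 16.8% and 14.5%.

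Of 16 tested regulators linked with claudin or epithelial gene expression, 5 were higher and 3 lower over the mean of the pools, with a median of -0.20, where 20.3% and 19% of all genes were called. Elf3, an epithelial ETS factor, was at 26.9, 26.8 and 30.9 CPM in mock and 50.4, 56.3 and 49.6 CPM in METTL7A1 polysomal RNA, and its change over the mean of the pools was 1.05 ± 0.13 (edgeR adjusted p = 4.35e-06). Tfap2c, an AP-2 factor of mammary epithelium, had 0 to 1 counts in each mock library and 6 to 21 in each METTL7A1 library. It passed the filter of 1 CPM in 3 libraries through METTL7A1 libraries alone. Tfap2c could thus enter the 5 higher genes but not the lower ones, and that count is partly set by the filter. Among splicing regulators of epithelium, Esrp2 was at 0.62 ± 0.13 and Esrp1 at -0.58 ± 0.09. Ovol1 was at 0.48 ± 0.14, and Snai1, a repressor of epithelial genes, at 0.57 ± 0.14, with 0.91 in sub-polysomal and 0.23 in polysomal RNA. Snai1 did not pass with GC offsets (0.26, adjusted p = 0.0751), nor Ovol1 without library pair E (0.42, adjusted p = 0.0628).

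Of 10 tested proteases and partners of claudins, 5 were higher and 0 lower over the mean of the pools, with a median of 0.33, beside the same 20.3% and 19% of all genes. Prss8 (prostasin), a membrane serine protease, was at 5.63, 7.86 and 9.27 CPM in mock and 40.1, 29.0 and 22.7 CPM in METTL7A1 sub-polysomal RNA, without overlap. Its change over the mean of the pools was 1.58 ± 0.15 (edgeR adjusted p = 2.41e-07). St14 (matriptase), the protease that acts with prostasin, was at 0.53 ± 0.11, Zdhhc12 at 0.51 ± 0.11, and Epha2, a receptor kinase, at 0.47 ± 0.11. With GC offsets these 3 were at 0.27, 0.21 and 0.25, and Zdhhc12 did not pass (adjusted p = 0.0543).

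**Figure D5:**
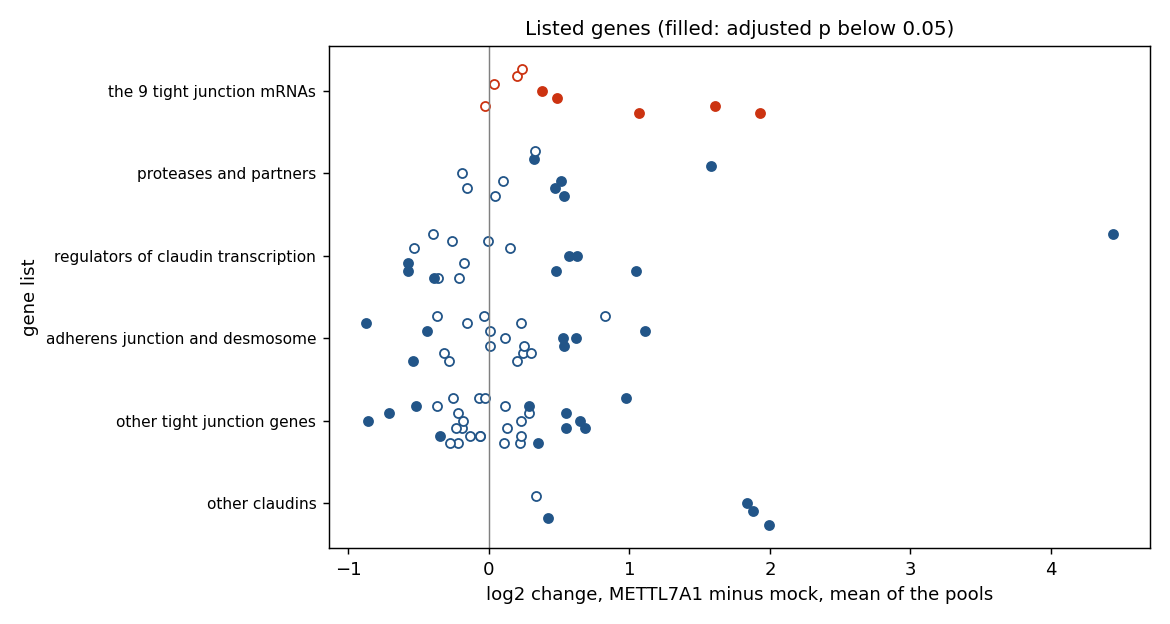
Log2 change of METTL7A1 against mock cells over the mean of the pools for each tested gene of 6 lists, one row per list, with filled points where the edgeR adjusted p was below 0.05 (points are spread vertically only to be seen). The 9 members (red) run from -0.03 to 1.93, and the point at 4.44 is Tfap2c, which had 0 to 1 counts in mock libraries.

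The genes whose level followed Cldn3 most closely over the 12 libraries included, of 9456 genes with a mean of at least 5 CPM, Atf3 (Pearson r = 0.98), Tmem184b (0.975), Atg9b (0.974) and Il24 (0.973). These 4 had positive changes in both pools, from 0.93 to 2.36. Cldn4 ranked at place 47 for Cldn3, with r = 0.945, and Cldn3 at place 83 for Cldn4. The closest to Cldn4 were Rhbdf2 (0.99), Slc45a3 (0.989) and Metrnl (0.988). The closest to Cldn7 were Sar1a (0.953), St14 (0.948) and H2-K1 (0.943), and its r with Cldn3 and Cldn4 was 0.735 and 0.766. The r of Cldn3 with Ocln was 0.144. These values share the 12 libraries and the split into 2 genotypes and 2 pools, and are given as descriptions. By Spearman's rank correlation at most 1 of the 4 genes named for Cldn3, 0 of the 3 for Cldn4 and 0 of the 3 for Cldn7 were again the closest.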

How the data were processed

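RNA-Seq of 12 libraries was analysed. Per the labels, reads were aligned with STAR 2.5.3a and assigned with featureCounts. For its total RNA libraries the study's methods give stranded rRNA-depleted preparation, trimming with BBDuk, the mm10 genome and Ensembl genes of GRCm38. They do not say whether the polysome libraries were made and processed alike. The values the authors deposited are whole-number read counts per gene, not normalized. The strand setting and the treatment of reads with several matches are not given in the sources used here.

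The 12224 genes that reached 1 CPM in 3 or more libraries were tested. The 4 group means were fitted with edgeR 4.0.16 (R 4.3.3, TMM factors, quasi-likelihood F-test), with Benjamini-Hochberg adjustment over these genes. Intervals are at 95%. The polysomal and sub-polysomal libraries of a letter were treated as independent, and deviations of the 2 pools of a letter correlated with r from -0.292 to 0.107. Levels for correlations and ratios are log2 CPM with a prior count of 2. Promoters were searched in RefSeq sequences of GRCm38.p6. The scripts were tested on simulated data.

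Alternatives were DESeq2 1.42.0, limma-voom (limma 3.58.1), other scalings and filters, fits of the compared groups alone, a replicate block, leaving out each letter and, added after seeing the data, offsets for the GC content of GENCODE transcripts, by which the trend in every library was taken out. Changes in a region of a chromosome are medians over tested genes. Named genes were all 9 members, Mettl7a1, at most 6 genes per list that passed in either pool, by size of change over the mean of the pools, and the 5 genes most like Cldn3 and 3 each most like Cldn4 and Cldn7. One of the genes most like Cldn3 is not reported here. Members and lists were chosen with earlier results of these data known.

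Depth limits low genes: 3 counts, the limit that a count of 0 allows, are 0.431 to 1.65 CPM, and such limits cover counting error only.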

Additional observations from a re-analysis of the deposited data

How the results depend on the processing

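Cldn3 and Cldn4 kept their direction and an adjusted p below 0.05 in both pools in all alternative fits, and for Tjp3 the fit with at least 10 counts in every library could not be had. DESeq2 gave no adjusted p for the shift of Tjp3 and Cgn. The stricter rule left 1 member in polysomal RNA and 2 over the mean of the pools for the genotypes, and 0 in mock and 0 in METTL7A1 cells between the pools. Between the pools of METTL7A1 cells 3 members passed with DESeq2 and 2 with Actb scaling, and between those of mock cells 7 passed with TMM factors within each pool, 2 without a filter beyond 1 count in total and 2 with GC offsets. The share of all genes that passed with TMM factors within each pool was not counted. Leaving out each letter in turn gave 2 to 5 members in polysomal RNA, 2 to 4 in sub-polysomal RNA and 3 to 5 over the mean. It gave 1 to 3 and 2 to 6 between the pools of mock and METTL7A1 cells, 0 for the shift and 3 to 4 for the ratios of single replicates. For all changes of sign and of calls, the cause was not tested.

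The letters were not taken as pairs in the main fit, since the deviations of same-letter libraries correlated with r of at most 0.107. Only the ratios of single replicates and the replicate block used them as pairs. With the replicate block, 5389 genes passed between the pools of mock cells and 7017 between those of METTL7A1 cells, against 5746 and 7248 without it, and the shift of Cldn3 was 0.051 in place of -0.03. The replicate block changed no call of a member.

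The direction of some values that had not passed turned. With limma-voom the polysomal change of Cgn was 0.0063 and the shift of Cldn3 0.060. With TMM factors within each pool the change between the pools was 0.037 for Cldn3 in mock cells, and 0.028 for Cldn3 and 0.345 for Cldn4 in METTL7A1 cells. With Actb scaling the genotype change of Cgn was 0.086 in polysomal RNA, 0.21 in sub-polysomal RNA and 0.15 over the mean, and the sub-polysomal changes of Marveld2 and F11r were 0.016 and 0.24. Under the same scaling the change between the pools of METTL7A1 cells was -0.013 for Cldn7 and -0.030 for Tjp3, and the shift was -0.042 for Cldn7 and -0.12 for Cgn. Without a filter the sub-polysomal change of F11r was 0.0074. With GC offsets that change was 0.11, Cldn3 was at 0.028 and 0.53 between the pools of mock and METTL7A1 cells, Cldn4 at 0.26 in METTL7A1 cells, and the shifts of Cldn3, Tjp1 and Tjp3 were 0.50, -0.021 and 0.29.

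Leaving out each letter in turn, the polysomal genotype change of Cgn ran from -0.081 to 0.13. Sub-polysomal changes ran from -0.23 to 0.12 for F11r, from -0.13 to 0.43 for Tjp1 and from -0.18 to 0.088 for Cgn, and those over the mean from -0.082 to 0.099 for Marveld2 and from -0.075 to 0.025 for Cgn. Between the pools of mock cells Cldn7 ran from -0.069 to 0.18 and Marveld2 from -0.025 to 0.21, and between those of METTL7A1 cells Cldn4 ran from -0.21 to 0.066 and Tjp3 from -0.11 to 0.46. The shift ran from -0.32 to 0.33 for Cldn3, from -0.060 to 0.39 for Cldn7, from -0.29 to 0.48 for Tjp1, from -0.17 to 0.24 for Cgn and from -0.45 to 0.19 for Tjp3.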
